A study of Mus musculus with 6 samples.

Results

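The RNAs described here are 9 noncoding transcripts, Neat1, Malat1, Rn45s, Meg3, Gas5, Snhg1, Snhg12, Kcnq1ot1 and H19, followed across 6 mouse triple-negative breast cancer (TNBC) tumors. Members were taken as the rows of the deposited table whose gene symbol equalled one of these names. The names had been chosen with the difference between treated and control tumors already known, so that difference is described here and not tested. Of the 9 listed, 8 were among the 13730 genes of the table used here, and Snhg1 had no row there. Of those 8, Neat1, Malat1, Rn45s and H19 passed edgeR's filter on low counts, which kept 10902 genes. Meg3, Kcnq1ot1, Gas5 and Snhg12 did not pass and are given as counts. In the comparison that motivated the set, Rn45s was about 2.03 times and Neat1 about 1.57 times as high in treated as in control tumors, Malat1 was 1.16 times as high with overlapping groups, and H19 varied 10.0-fold between tumors without separating the groups.

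All 6 tumors grew from C0321 cells, a single mesenchymal (claudin-low) clone derived from a Lunatic Fringe knockout (Lfng-/-) tumor on the FVB background, after the cells had been placed in the mammary fat pad of female FVB mice aged 6 to 10 weeks. In the 3 SS tumors the mice received sulindac sulfide (SS), a gamma-secretase modulator, by mouth at 60 mg/kg each day over 14 days, and in the 3 Control tumors they received the control treatment, called saline in the text of the series and vehicle in the study. The sample labels spell the drug Sulindac Sulfate. The labels number the tumors within each group and do not state that each number is a separate mouse, so errors measure the spread between these tumors. The libraries were prepared from RNA of whole tumors with selection on poly(A) tails, in which fewer cells of one type and less RNA per cell cannot be told apart.

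Many long noncoding RNAs never leave the nucleus. Neat1 is the scaffold of paraspeckles, Malat1 gathers in nuclear speckles with splicing factors, Kcnq1ot1 and Meg3 act at imprinted loci, and Rn45s is the nucleolar precursor from which the large ribosomal RNAs are cut. Gas5, Snhg1 and Snhg12 carry small nucleolar RNAs (snoRNAs) in their introns, and their spliced exons reach the cytoplasm, where translation exposes them to nonsense-mediated decay. H19 is an imprinted, mostly cytoplasmic RNA that is abundant in the embryo and in muscle.

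Library totals lay between 8468914 counts in SS tumor 2 and 24441522 counts in Control tumor 3, so that 3 counts, the floor used here, equal between 0.123 and 0.358 CPM. CPM is a count scaled to a common library size. The median total was lower in the SS group. The tumors had the mesenchymal gene Vim at 5870 to 8620 CPM, while the receptor genes that define TNBC by their absence lay at 4.48 to 6.40 CPM for Esr1, 0 to 3.82 CPM for Pgr and 17.1 to 22.4 CPM for Erbb2. By edgeR's quasi-likelihood test, 0 of the 10902 genes (0%) passed an adjusted p (Benjamini-Hochberg) of 0.05, against 35 in DESeq2, and 693 genes (6.36%) had an unadjusted p under 0.05 in edgeR. Of the marker lists of other cells, that of red blood cells differed most between groups, with all 5 tested genes below 0 on the log2 scale and 4 at an unadjusted p under 0.05, sums of 1892 to 3927 CPM in Control and 853 to 1934 CPM in SS tumors, and Slc4a1 at 0 in 1 tumor. The part of this in the values of the members was not tested. In SS tumor 2 the snoRNAs stood apart from those of the other tumors, as described beside Rn45s.

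Because the libraries were selected on poly(A) tails, the 3′ ends of the members bear on what was captured. The stretches below are shown 5′ to 3′ on the RNA strand, written with T for U, from the GENCODE transcripts of GRCm38. Malat1 is a single exon, and its piece, chr19:5795918-5796049 on the minus strand, carries the transcript's longest run of A in capitals, 12 bases that start at base 6674 of 6983. Just after this run lies the tRNA-like segment that RNase P and RNase Z release from Malat1, which leaves the mature RNA with an encoded A-rich end in place of an added tail. The short form of Neat1 ends at chr19:5842307-5842366, and the AATAAA in capitals is the usual polyadenylation signal, here 14 bases from the end. The annotated Malat1 transcript also holds AATAAA, 16 bases from its end. The long form of Neat1 ends at chr19:5824708-5824767 in an A-rich stretch like that of Malat1 and holds no AATAAA in its last 60 bases. Of all 141515 GENCODE transcripts of at least that length, 27.2% hold AATAAA in their last 60 bases and 4.08% hold 12 A in a row anywhere.
Malat1: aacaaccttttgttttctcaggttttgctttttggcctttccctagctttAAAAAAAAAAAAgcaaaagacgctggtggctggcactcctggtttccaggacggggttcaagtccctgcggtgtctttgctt
Neat1 short: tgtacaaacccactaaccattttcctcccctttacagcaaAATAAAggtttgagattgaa
Neat1 long: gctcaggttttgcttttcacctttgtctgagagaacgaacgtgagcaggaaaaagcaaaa

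snoRNA-host genes are known for starting in a run of C and T, the terminal pyrimidine tract they share with ribosomal protein genes. Windows of 30 bases on each side of the annotated start are shown for the host genes and Kcnq1ot1 from RefSeq promoters on GRCm38.p6, with the unbroken run of C and T that contains the first transcribed base in capitals. The positions are chr1:161035136-161035195 (plus strand) for Gas5, chr4:132308648-132308707 (plus) for Snhg12, chr19:8723457-8723516 (plus) for Snhg1 and chr7:143296518-143296577 (minus) for Kcnq1ot1. The first 5 transcribed bases were all C or T for Gas5 and Snhg12, in runs of 6 and 9 bases. Snhg1 had a run of 4 bases, and a second annotated start of Gas5 as well as Kcnq1ot1, Meg3 and Malat1 did not begin with 5 such bases. Over all 32851 RefSeq windows the share with 5 such bases was 4.44%, and over 76 windows of ribosomal protein genes it was 22.4%. The promoter table was used for those members it lists; Neat1, H19 and Rn45s were not looked up elsewhere.
Gas5: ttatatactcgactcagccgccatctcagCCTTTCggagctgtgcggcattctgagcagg
Snhg12: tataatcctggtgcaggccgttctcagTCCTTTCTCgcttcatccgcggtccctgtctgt
Snhg1: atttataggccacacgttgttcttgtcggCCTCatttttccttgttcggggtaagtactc
Kcnq1ot1: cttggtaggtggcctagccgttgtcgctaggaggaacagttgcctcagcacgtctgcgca

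Per length of transcript, the members spanned from Malat1, at 498 ± 73.3 CPM per kb in Control tumors (SD, n = 3), to Kcnq1ot1, at 0.00837 ± 0.00525 CPM per kb (SD, n = 3). H19 followed Malat1 at 36.0 ± 20.3 CPM per kb, then Rn45s at 17.6 ± 3.64 and Neat1 at 1.37 ± 0.27 CPM per kb, all means of Control tumors with SD and n = 3. Malat1 stood above H19 in 6 of 6 tumors, and Rn45s stood above Neat1 and Neat1 above Meg3 in 6 of 6, in each case without overlap of the ranges. H19 and Rn45s overlapped, with H19 higher in 4 of 6 tumors. Meg3, Gas5, Snhg12 and Kcnq1ot1 overlapped with their neighbours in this order, and each had 0 counts in at least 1 tumor. The plot of level per length shows these steps.

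**Figure D1:**
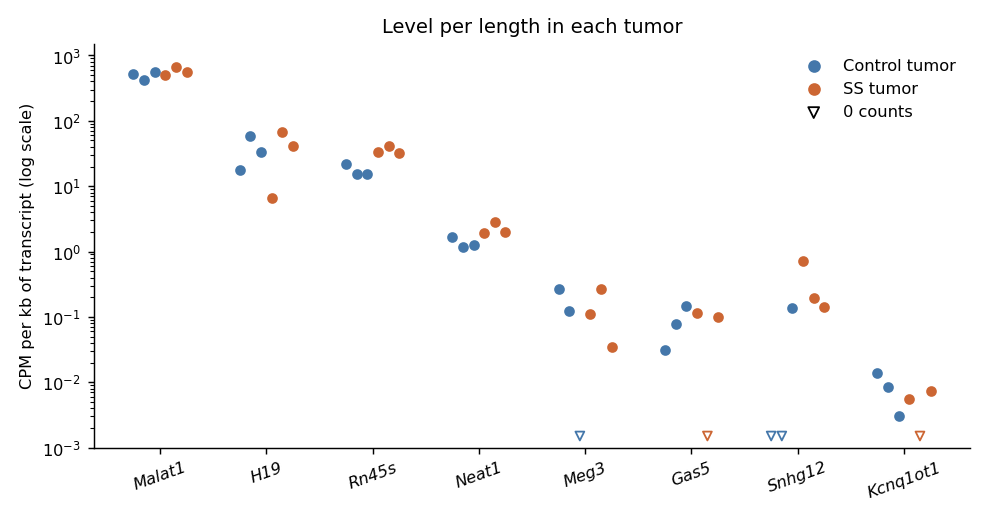
Level of each member in CPM per kb of transcript, on a log axis, for each Control tumor (blue) and each SS tumor (orange); open triangles mark 0 counts. Malat1 lies between 416 and 663 CPM per kb, H19 and Rn45s share a range below it, and the 4 members at the right lie below 1 CPM per kb.

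Malat1, a single exon of 6983 bases on chr19:5795690-5802672 (minus strand), was the most abundant member. It stood at 3655, 2901 and 3879 CPM in the Control group (tumors 1 to 3) and at 3551, 4626 and 3930 CPM in the SS group (tumors 1 to 3). It took between 0.288% and 0.458% of all counts and ranked between 18 and 31 among all genes of a tumor. The groups overlapped, since SS tumor 1 lay below Control tumors 1 and 3, while SS tumor 2 was highest. The mean was 3478 ± 512 CPM in Control and 4036 ± 546 CPM in SS tumors (SD, n = 3 each), a log2 fold change of 0.21 (standard error, SE, 0.14). Without SS tumor 2 it was 0.10 and without Control tumor 2 it was 0.099.

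Neat1 lies 22.0 kb from Malat1 on the same strand of chromosome 19. It stood at 7.51, 6.73 and 6.32 CPM in the Control group (tumors 1 to 3) and at 8.78, 13.7 and 9.80 CPM in the SS group (tumors 1 to 3). Every SS tumor lay above every Control tumor, with SS tumor 2 highest and a narrow gap between SS tumor 1 and Control tumor 1. The log2 fold change was 0.65 (SE 0.24), with 6.85 ± 0.604 CPM in Control and 10.8 ± 2.60 CPM in SS tumors (SD, n = 3 each). The counts behind it were between 95 and 154 per tumor, against 38802 to 94510 for Malat1. It was 0.44 without SS tumor 2 and between 0.59 and 0.78 without any other single tumor.

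Both forms of Neat1 were listed, the short one of 3004 bases (chr19:5842296-5845480) and the long one of 20771 bases (chr19:5824710-5845478), which share their start. Only the long form builds paraspeckles. The short form took 61.5%, 44.0% and 53.2% of Neat1 counts across the Control group and 59.0%, 54.8% and 54.2% across the SS group (tumors 1 to 3), so the groups overlapped. These are shares of counts with no correction for length, so they are not shares of molecules. In CPM, the short form was at 3.65 ± 0.863 (SD, n = 3) in Control and 6.00 ± 1.31 (SD, n = 3) in SS tumors, and the long form at 3.21 ± 0.491 (SD, n = 3) and 4.76 ± 1.32 (SD, n = 3). For the short form every SS tumor lay above every Control tumor, while for the long form SS tumor 1, at 3.60 CPM, lay below Control tumor 2, at 3.77 CPM. Reads in the shared part were divided between the forms by the authors' estimate, which makes each form less certain than the sum.

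**Figure D2:**
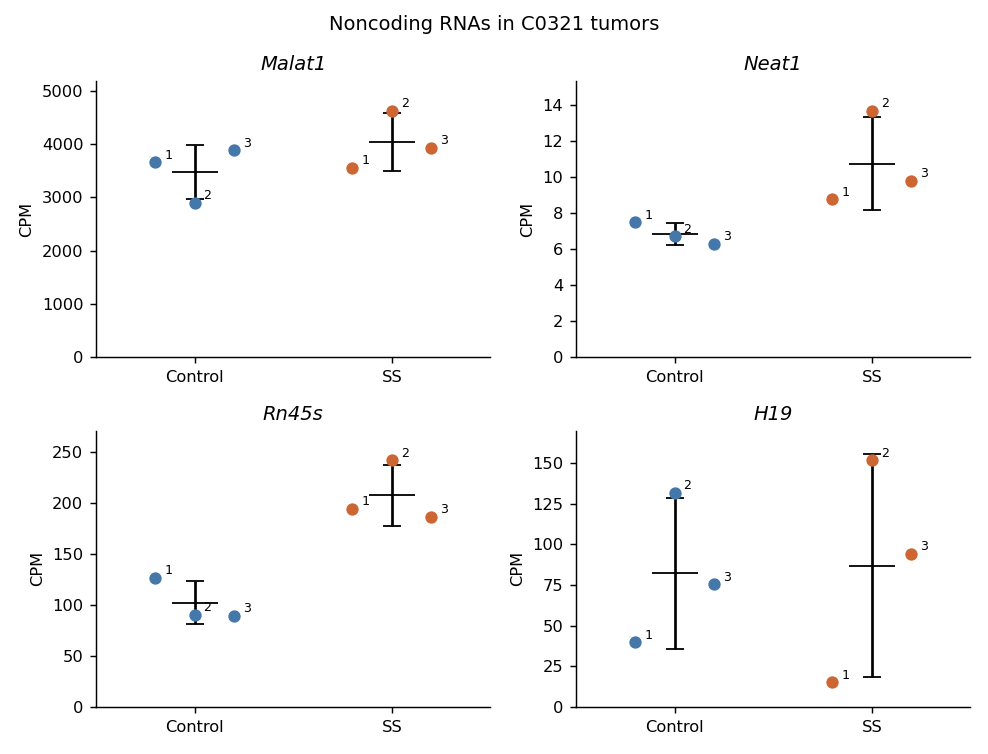
CPM of Malat1, Neat1, Rn45s and H19 in each Control tumor (blue) and SS tumor (orange), numbered 1 to 3 as in the labels; horizontal bars are means and error bars SD (n = 3), with axes from 0. Rn45s and Neat1 have all SS tumors above all Control tumors, Malat1 and H19 overlap, and SS tumor 2 is highest in each panel.

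Rn45s, on chr17:39842997-39848829 (plus strand), stood at 127, 90.7 and 89.7 CPM in the Control group (tumors 1 to 3) and at 195, 242 and 187 CPM in the SS group (tumors 1 to 3). Every SS tumor lay above every Control tumor. The mean was 102 ± 21.2 CPM in Control and 208 ± 30.0 CPM in SS tumors (SD, n = 3 each), a log2 fold change of 1.02 (SE 0.17), and it stayed between 0.90 and 1.20 with any single tumor left out. Among the 4 members tested, Rn45s and Neat1 had groups that did not overlap, both with SS above, while 6.51% of all tested genes had every SS tumor above every Control tumor. The set was chosen on this contrast, so nothing is read from that count. The precursor is made without a poly(A) tail, while the libraries were selected on one. The row spans 5833 bases with no matching GENCODE transcript, and which parts of the precursor it covers was not determined, so its counts may include sequence of mature ribosomal RNA, which is not confined to the nucleolus.

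The totals of the libraries ran nearly opposite to Rn45s and Neat1. The deepest library, Control tumor 3, was lowest in both, and the shallowest, SS tumor 2, was highest in both. Control tumor 1, SS tumor 1 and SS tumor 3 had like totals of 12314368, 13696665 and 12071346 counts. Among these, Rn45s was at 127, 195 and 187 CPM and Neat1 at 7.51, 8.78 and 9.80 CPM. That order follows from the separation of all tumors given above and adds nothing on depth. Whether depth has a part in the difference was not tested.

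snoRNA reads did not follow Rn45s. The 43 snoRNAs and scaRNAs in the table, which guide the chemical changes of ribosomal and spliceosomal RNA, summed to 7286, 3497 and 6243 CPM in the Control group (tumors 1 to 3) and to 10120, 1732 and 6767 CPM in the SS group (tumors 1 to 3). The lowest sum was that of SS tumor 2, where Rn45s was highest. For 23 of the 29 snoRNAs tested SS tumor 2 was the lowest tumor, and its median difference from the mean of the other SS tumors was -3.04 in log2 CPM. Of the 29, 0 had an unadjusted p under 0.05 in edgeR. Their median difference in mean log2 CPM between SS and Control was -0.35 with all tumors and 0.56 without SS tumor 2, while the median of edgeR's log2 fold changes was 0.19.

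**Figure D3:**
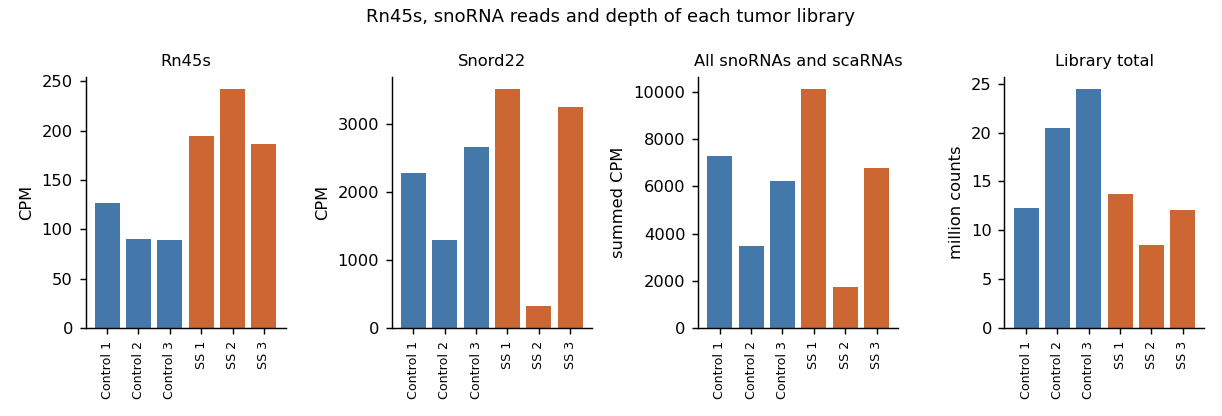
Rn45s (CPM), Snord22 (CPM), the sum over 43 snoRNAs and scaRNAs (CPM) and the library total as bars from 0 for each Control tumor (blue) and SS tumor (orange). SS tumor 2 has the highest bar for Rn45s and the lowest for Snord22, for the snoRNA sum and for the total.

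The replication-dependent histone genes also make mRNAs without a tail. Of 68 in the table, 66 were tested, and 65 had a log2 fold change above 0, with a median of 0.23 beside -0.0014 over all tested genes. None of the 66 had an unadjusted p under 0.05 in edgeR, and Control tumor 3 was the lowest tumor for 63 of them. Their sum was 51080, 67780 and 30780 CPM in Control and 69820, 49310 and 57050 CPM in SS tumors 1, 2 and 3, so that SS tumor 2 lay below Control tumors 1 and 2, unlike for Rn45s.

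H19, on chr7:142575530-142578146 (minus strand), was the member with the widest spread. It stood at 39.8, 132 and 75.4 CPM in the Control group (tumors 1 to 3) and at 15.1, 152 and 94.1 CPM in the SS group (tumors 1 to 3). The SS group held both the highest and the lowest tumor. The mean was 82.3 ± 46.4 CPM in Control and 86.9 ± 68.6 CPM in SS tumors (SD, n = 3 each), with a log2 fold change of 0.07 and a standard error of 0.72, whose sign changed with single tumors left out, from -0.60 without SS tumor 2 to 0.59 without Control tumor 2. The SD of log2 CPM within groups was 1.38, larger than for 95.2% of tested genes and for 99.4% of the 1239 genes at a similar level. Over all tested genes the median was 0.28. For Rn45s the SD was 0.25, larger than for 87.7% of the 826 genes at a similar level, whose median was 0.14. For Malat1 it was 0.21, larger than for 58.8% of the 17 genes at its level, and for Neat1 it was 0.25, larger than for 31.9% of 1408. The 2 listed forms of H19 have the same interval and match the same transcript of 2286 bases. Their shares, between 47.7% and 52.3% each in every tumor, come from the authors' estimate and may not tell 2 forms apart.

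Over the 6 tumors the log2 CPM of H19 was most like that of Col1a1, a chain of type I collagen (Pearson r = 0.992), and of Myoz2, a protein of the muscle Z-disc (r = 0.991). The 6 tested markers of skeletal muscle summed to between 890 and 9401 CPM in Control and between 283 and 18030 CPM in SS tumors, none of them at 0 in any tumor. SS tumor 1 was lowest and SS tumor 2 highest in both H19 and this sum, whereas Control tumor 3, with the second-lowest muscle sum of all tumors, had more H19 than Control tumor 1. The 6 fibroblast markers, 5 of them tested, summed to between 10460 and 15180 CPM in Control and between 7393 and 15190 CPM in SS tumors, most of it Col1a1, with Lum at 0.0845 to 1.74 CPM and none at 0. The other fibroblast markers were mixed. Col3a1, from 311 to 929 CPM, and Dcn, from 2.54 to 10.5 CPM, were lowest in SS tumor 1 and highest in SS tumor 2, as H19 was. Pdgfra was lowest in SS tumor 1, at 2.98 CPM, and highest in Control tumor 1, at 9.96 CPM, whereas Fap, at 12.4 CPM, was lowest in SS tumor 2. The part of muscle or connective tissue in the H19 values was not tested.

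**Figure D4:**
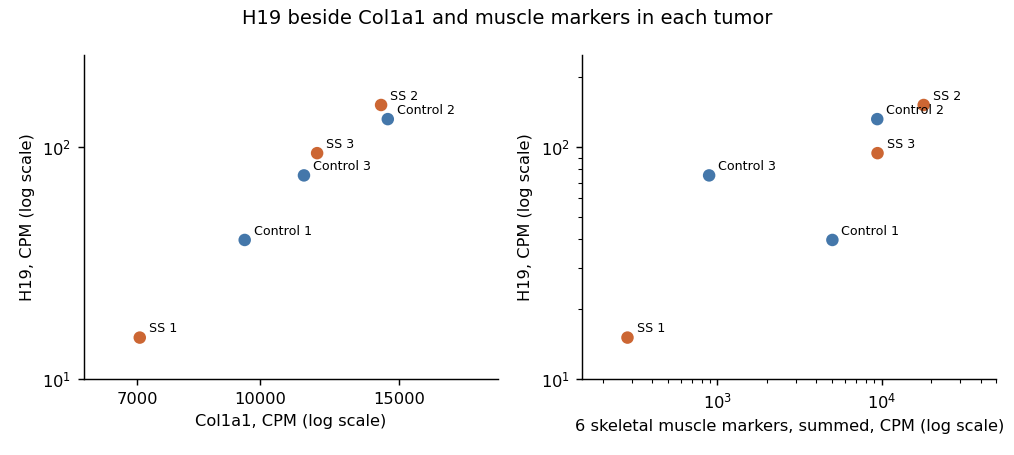
H19 in CPM against Col1a1 in CPM (left) and against the summed CPM of 6 skeletal muscle markers (right), all axes on a log scale, for each Control tumor (blue) and SS tumor (orange). H19 runs from 15.1 CPM in SS tumor 1 to 152 CPM in SS tumor 2 and lies close to a line with Col1a1, while Control tumor 3 stands off from the muscle markers.

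Meg3, the maternally expressed RNA of the Dlk1-Dio3 domain on chromosome 12, had 11, 12 and 0 counts across the Control group and 9, 6 and 6 counts across the SS group (tumors 1 to 3). The pooled level was 0.401 CPM (exact 95% Poisson interval 0.254 to 0.602) in Control and 0.618 CPM (0.382 to 0.944) in SS tumors, a ratio of 1.54 (0.811 to 2.91). Such intervals cover counting error only, and this one includes equality. The neighbours Rtl1, Dio3 and Begain, the tested genes of that domain, had log2 fold changes of 0.23, -0.82 and -1.23 with groups that overlapped.

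Kcnq1ot1, the antisense RNA that silences the Kcnq1 domain in cis, lies on chr7:143213111-143296547 (minus strand). It had 16, 16 and 7 counts across the Control group and 7, 0 and 8 counts across the SS group (tumors 1 to 3). Its ratio of SS to Control was 0.649 (95% counting interval 0.332 to 1.20), from 0.680 CPM to 0.441 CPM. SS tumor 2, with 0 counts, is the shallowest library, where 3 counts equal 0.358 CPM, which lies below both pooled levels. Kcnq1, the only tested gene within 100 kb, had a log2 fold change of 0.095.

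The host RNAs with a row had few counts. The row for Gas5, which matches a retained-intron transcript of 2556 bases on chr1:161035166-161038537 (plus strand), had 1, 4 and 9 counts across the Control group and 4, 0 and 3 counts across the SS group (tumors 1 to 3). Of the 8 current RefSeq transcripts of Gas5, 0 were among the rows, so that spliced Gas5 was not analysed here. Snhg12, a spliced RNA of 606 bases on chr4:132308678-132311024 (plus strand), had 0, 0 and 2 counts across the Control group and 6, 1 and 1 counts across the SS group (tumors 1 to 3). The ratio of SS to Control was 0.844 (95% counting interval 0.288 to 2.23) for Gas5. For Snhg12 it was 6.75 (1.35 to 65.2), from 2 counts against 8, of which 6 came from SS tumor 1. A change of the host RNAs of the size seen for Rn45s was not detectable for Gas5 at this depth.

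Some snoRNAs inside the host genes had rows of their own. Snord22, a C/D snoRNA from an intron of Snhg1 at chr19:8725866-8725991 (plus strand), is printed below as the most abundant of them, with the motif CTGA in capitals. It occurs 2 times in the 126 bases, the last match 5 bases from the end, where the D box of such snoRNAs lies. On the RNA strand, 98.0% of the 99 GENCODE transcripts named Snord hold CTGA in their last 20 bases.
Snord22: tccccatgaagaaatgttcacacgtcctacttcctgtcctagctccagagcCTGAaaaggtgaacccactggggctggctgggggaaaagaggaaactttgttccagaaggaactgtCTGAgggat

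Snord22 stood at 2292, 1293 and 2669 CPM in the Control group (tumors 1 to 3) and at 3521, 331 and 3262 CPM in the SS group (tumors 1 to 3). SS tumor 2 was lowest and the other SS tumors were above all Control tumors, so the groups overlapped. Its log2 fold change was 0.19 (SE 0.71) with an edgeR adjusted p of 0.970. Snora16a and Snora44, H/ACA snoRNAs from introns of Snhg12, had 167 and 57 counts over the 6 tumors, against 10 for Snhg12 itself, and Snora16a was also lowest in SS tumor 2, with 1 count. Introns of Gas5 gave no snoRNA row in the table used here. snoRNA reads can come from the snoRNA or from unspliced host RNA, and the counts do not tell these apart.

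Nuclear members were then set against the others. Of the nuclear members Neat1, Malat1 and Rn45s were tested, and of the cytoplasmic and host members only H19, so the comparison is one of 3 RNAs with 1. The mean log2 CPM of the 3 minus that of H19 was 1.94, -0.12 and 0.79 across the Control group and 3.59, 0.72 and 1.04 across the SS group (tumors 1 to 3). The groups overlapped, and the order of the tumors was close to the reverse of that of H19. The mean was 0.87 ± 1.03 (SD, n = 3) in Control and 1.78 ± 1.57 (SD, n = 3) in SS tumors. The mean fitted log2 fold change of the nuclear members exceeded that of H19 by 0.56, which became 0.36 without Rn45s. Fitted without the filter on low counts, all 5 nuclear members against Gas5, Snhg12 and H19 gave -0.51. In that fit Snhg12 had a log2 fold change of 2.5 from 10 counts and Kcnq1ot1 had -0.91 from 54 counts. Meg3 had 0.39 from 44 counts and Gas5 had -0.23 from 21 counts. With single tumors left out it was 0.98 without Control tumor 1, -0.026 without Control tumor 2, 0.60 without Control tumor 3, 0.87 without SS tumor 2 and 0.14 without either of the other SS tumors. The difference of 0.91 between the group means per tumor was smaller than the SD of either group.

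The nuclear members differed among themselves. The ratio of Malat1 to Rn45s in CPM was 28.8, 32.0 and 43.3 across the Control group and 18.2, 19.1 and 21.1 across the SS group (tumors 1 to 3), lower in every SS tumor. The ratio of Malat1 to Neat1 was 487, 431 and 614 in Control and 404, 337 and 401 in SS tumors, again lower in every SS tumor. Rn45s over Neat1 was between 13.5 and 16.9 in Control and between 17.7 and 22.2 in SS tumors, higher in every SS tumor. The members were chosen with this contrast known, so the ratios restate it and nothing further is read from them. Across the 6 tumors, which share the split into treatment groups, log2 CPM of Neat1 correlated with that of Rn45s at r = 0.932 and with that of Malat1 at r = 0.727, and H19 correlated with these 3 RNAs at between -0.132 and 0.214.

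Other noncoding RNAs of both kinds were counted from lists. Of 18 listed nuclear RNAs, 9 were in the table and Xist and Dnm3os were tested. Xist, which coats the inactive X chromosome, was at 14.3, 14.2 and 13.4 CPM in the Control group (tumors 1 to 3) and at 27.1, 23.4 and 18.8 CPM in the SS group (tumors 1 to 3), a log2 fold change of 0.73 (SE 0.18) with an edgeR adjusted p of 0.760. Dnm3os, a microRNA host, was at 0.672 ± 0.244 CPM in Control and 2.05 ± 0.896 CPM in SS tumors (SD, n = 3 each), so that its log2 fold change was 1.61 (adjusted p = 0.771, edgeR). Both had every SS tumor above every Control tumor and an unadjusted p under 0.05 in edgeR. Such a p in the higher direction was shared by 3.19% of all tested genes. Dnm3os passed the filter on low counts through the SS group, where it was high, so its call and separation are not read against that share.

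Of 21 listed snoRNA-host and cytoplasmic RNAs, 4 were in the table, all of them tested. Dancr was at 0.395, 0.688 and 0.451 CPM in the Control group (tumors 1 to 3) and at 3.05, 1.07 and 1.61 CPM in the SS group (tumors 1 to 3). It passed the filter on low counts only through the SS group, where it was high. It was the only one with an unadjusted p under 0.05 (log2 fold change 1.89, SE 0.59, edgeR adjusted p of 0.771), a call that this filter favoured. Snhg8, Mir22hg and Mir17hg had log2 fold changes of 0.087, -0.017 and 0.79 with groups that overlapped. Mir22hg and Mir17hg are microRNA hosts, as is Dnm3os in the nuclear list, so these lists do not divide cleanly by place in the cell. For Dancr, a cytoplasmic host RNA, every SS tumor lay above every Control tumor. Its entry through the SS group favoured this, so no share over all tested genes is set beside it. In edgeR none of these RNAs passed adjustment over all genes.

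Genes for the proteins around these RNAs were counted from lists written for their roles. Of 13 tested paraspeckle protein genes, 9 had a log2 fold change above 0 and 4 below, with a median of 0.080, and 2 had an unadjusted p under 0.05, both higher, beside 3.19% of all tested genes called in that direction. Pspc1, a core paraspeckle protein, was at 54.5 ± 6.06 CPM in Control and 81.2 ± 7.18 CPM in SS tumors (SD, n = 3 each), a log2 fold change of 0.58 (SE 0.13) with an edgeR adjusted p of 0.679. Sfpq, which binds Neat1 with Nono, had a log2 fold change of 0.40 (SE 0.10) with an edgeR adjusted p of 0.760, and Nono itself had -0.11 (SE 0.10). For Pspc1 and Sfpq every SS tumor lay above every Control tumor, which held for 6.51% of all tested genes. Of 10 nuclear speckle genes, 7 were above 0 and 3 below, with a median of 0.14. Srrm2, a scaffold of speckles, was the only one with an unadjusted p under 0.05, with a log2 fold change of 0.22 and a standard error of 0.090. A single call of 10 genes is close to the 6.36% of all tested genes called in either direction.

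**Figure D5:**
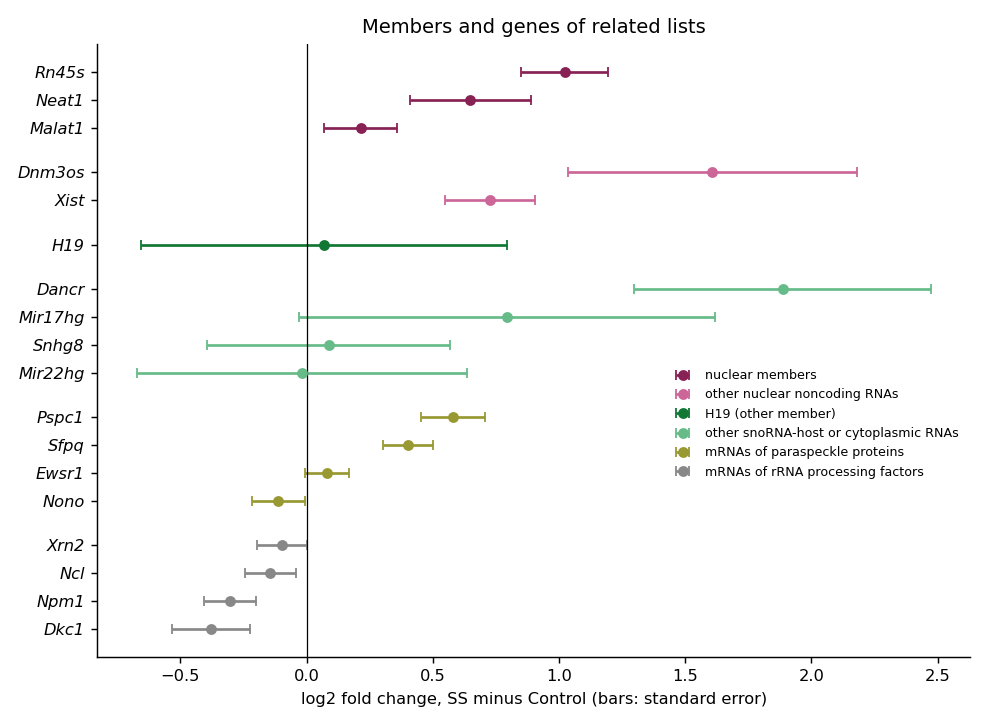
Log2 fold change of SS over Control tumors with its standard error from edgeR, for the tested members and the named genes of the related lists, grouped by colour; the vertical line marks 0. Rn45s, Neat1, Xist, Pspc1 and Sfpq lie above 0 by more than their standard error, H19 spans 0, and Npm1 and Dkc1 lie below 0.

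Among 27 tested genes of ribosomal RNA processing, 9 were above 0 and 18 below, with a median of -0.10, the opposite direction to Rn45s. Npm1, a nucleolar chaperone, was at 232 ± 21.1 CPM in Control and 188 ± 9.95 CPM in SS tumors (SD, n = 3 each), a log2 fold change of -0.30 (SE 0.10). Dkc1, the pseudouridine synthase of H/ACA snoRNAs, had -0.38 (SE 0.16). Npm1 and Dkc1 were the only ones with an unadjusted p under 0.05, which 3.16% of all tested genes had in the lower direction, and their adjusted p was 0.771 in edgeR. For 6 of the 27 every SS tumor lay below every Control tumor, beside 6.4% of all tested genes. Of 11 tested RNA polymerase I genes, 6 were above 0 and 5 below, with a median of 0.0033. Ubtf, which opens ribosomal DNA for transcription, had a log2 fold change of 0.19, and Polr1d, a subunit, had -0.40 with an unadjusted p under 0.05.

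Genes of RNA decay lay on both sides. Of 12 tested genes of nuclear decay and 3′ processing, 7 were above 0 and 5 below, and Zfc3h1, a partner of the nuclear exosome, was the only one with an unadjusted p under 0.05 (log2 fold change 0.43, SE 0.097, edgeR adjusted p of 0.679). Pabpn1, the nuclear poly(A)-binding protein in the same list, was the gene most like Rn45s over the 6 tumors (r = 0.994), with a log2 fold change of 0.12. Of 14 tested genes of nonsense-mediated decay, 11 were above 0 and 3 below, with a median of 0.11, and Smg1, its kinase, was the only one with an unadjusted p under 0.05 (log2 fold change 0.25, SE 0.10). Calls of 1 gene in lists of this size are close to the 6.36% of all tested genes called in either direction. None of the listed genes passed edgeR's test after adjustment.

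The genes whose pattern over the 6 tumors was most like Neat1 were Marchf1 (r = 0.989), a ubiquitin ligase of antigen-presenting cells, and Pde4d (r = 0.985), a cyclic AMP phosphodiesterase. For Malat1 they were Tulp4 (r = 0.989) and Zfp1 (r = 0.987), and the second gene for Rn45s was Msh5 (r = 0.993), a meiotic MutS homolog. With 10902 genes over 6 tumors, between 15 and 34 genes had an r over 0.95 with each of the 4 members, and these likenesses are a description.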

How the data were processed

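The deposited values are estimated counts, given by the authors for each RefSeq transcript with no normalization, from stranded poly(A)-selected libraries read in pairs of 75 nucleotides. Entries with low counts had been removed by the authors, and every transcript summed to at least 10 counts over the 6 tumors. The submitters' processing notes name CASAVA 1.8.1, Bowtie2 2.2.5, STAR 2.5.3a and mm10. The notes do not assign these tools to steps. The counting tool was not given in the sources used here.

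The counts of a gene symbol were added up and rounded to whole numbers, and 22 symbols that the table held as dates were restored from accessions. edgeR 4.0.16 (R 4.3.3) fitted all genes that passed its filter on low counts, using TMM scaling and quasi-likelihood tests whose p-values were adjusted by Benjamini and Hochberg. CPM uses TMM library sizes, log2 CPM a prior count of 2. Low members were pooled by group with exact Poisson intervals and exact binomial intervals of the ratio. Levels per kb used GENCODE or table lengths. The script was tested on simulated data. Alternatives used DESeq2 1.42.0, limma 3.58.1, other scalings and filters, the replicate number as a block, and each tumor left out.

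The members and lists were chosen with earlier results of these data known. Of each list, the 3 tested genes with the highest mean CPM and the 2 with the smallest unadjusted p could be named, and for each tested member the 2 genes with the highest correlation.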

Additional observations from a re-analysis of the deposited data

How the results depend on the processing

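At this depth Meg3, Kcnq1ot1, Gas5 and Snhg12 did not pass the filter on low counts. After adjustment 0 genes passed 0.05, which became 35 with DESeq2 and stayed at 0 in the other alternatives; the cause was not tested. Unadjusted, 693 genes passed 0.05, and between 520 and 877 did with single tumors left out. The deviations of same-numbered tumors correlated at 0.116, 0.0205 and 0.0767. Differently numbered tumors were not compared, so whether the number in the labels pairs the tumors was not tested. In a fit that took this number as a replicate block, 0 genes passed after adjustment and 643 before it, the nuclear members exceeded H19 by 0.88, and H19 had a log2 fold change of -0.26.

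The log2 fold changes of Rn45s, Neat1 and Malat1 kept their sign in all alternatives run, with single tumors left out from 0.90 to 1.2, 0.44 to 0.78 and 0.099 to 0.30. H19 ranged from -0.60 to 0.59 with single tumors left out and was -0.28 with quantile normalization. The nuclear members minus H19 ranged from -0.026 to 0.98 with single tumors left out, where 2 of these fits also let a further nuclear member pass the filter. Without the filter the difference was -0.51, with Gas5 and Snhg12 counted beside H19. In that fit Snhg12 had a log2 fold change of 2.5 from 10 counts. Library sizes without RNAs that lack a tail, an alternative chosen after seeing the data, gave a difference from H19 of 0.56. Leaving out H19 gave no value, since H19 was the only other member tested.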
